A study of Sus scrofa with 11 samples.

Results

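The genes described are 10 secreted proteins of the bone morphogenetic protein (BMP) and activin system, chosen by symbol. FST and FSTL3 are activin binding proteins, and FSTL1 belongs to the same follistatin family. The others are the ligand subunit genes INHBA and INHBB, the ligands BMP2, BMP4 and BMP6, and the BMP antagonists GREM1 and NOG. The 10 genes occupied 11 of the 30376 genes of the deposited values, because INHBA was listed at a pair of loci. Levels were measured by sequencing of poly(A) RNA from full-thickness skin wounds of Yucatan minipigs, taken on day 10 after wounding and sequenced as 1 library each. The 7 diabetic wounds came from 1 female minipig made diabetic at 6 months of age with intravenous streptozotocin, a toxin of the insulin-producing beta cells, whose insulin treatment was stopped before wounding. The 4 non-diabetic wounds, made in the same way by biopsy punch on the back, came from 1 female minipig without streptozotocin. Diabetes and the individual animal therefore cannot be told apart, and every error and p-value below measures only how much wounds on 1 animal varied.

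Of these genes, FST was the one in which every diabetic wound lay above every non-diabetic wound, at a mean of 6.87 ± 7.72 FPKM (SD, n = 7) against 1.19 ± 0.393 FPKM (SD, n = 4), a separation that held for 2.69% of all genes tested. FPKM is the fragment count scaled to gene length and to a size set for each library. FSTL3 was higher in 6 of the 7 diabetic wounds, at 16.8 ± 4.98 against 10.3 ± 1.84 FPKM. INHBA, INHBB, FSTL1 and the BMP ligands overlapped between the groups. None of the 10 loci that could be tested was called different by limma after adjustment over all genes, of which 3.00% were called.

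Activins and BMPs belong to the transforming growth factor β family. INHBA and INHBB encode the βA and βB subunits, which pair to form activins, and activins bind type II and type I serine/threonine kinase receptors that phosphorylate SMAD2 and SMAD3. BMP ligands use related receptors and SMAD1, SMAD5 and SMAD9. Follistatin, the product of FST, and the follistatin-like protein FSTL3 hold activins outside the cell so that they cannot reach their receptors, whereas gremlin (GREM1) and noggin (NOG) bind BMPs. FSTL1 is a secreted glycoprotein of the same family, best known from fibroblasts and other mesenchymal cells. Activin A is induced in healing skin and acts on keratinocytes and on granulation tissue, and follistatin is its main soluble antagonist there.

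The 5 ligand genes share the end of the coding sequence that encodes the cystine knot of the mature ligand. This stretch is shown because cysteine codons stand at the same positions in all 5 genes while the bases around them differ between genes. Each line gives the last 40 codons and the stop codon from the RefSeq annotation of Sscrofa11.1, with the cysteine codons in capitals.
INHBA (chr18:52900280-52900402, plus strand): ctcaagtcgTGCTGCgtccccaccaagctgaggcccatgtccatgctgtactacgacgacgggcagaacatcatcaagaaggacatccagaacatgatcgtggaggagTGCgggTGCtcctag
INHBB (chr15:30999994-31000116, minus strand): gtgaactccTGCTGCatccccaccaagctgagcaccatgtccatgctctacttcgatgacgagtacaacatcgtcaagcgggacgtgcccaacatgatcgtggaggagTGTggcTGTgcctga
BMP2 (chr17:15761035-15761157, plus strand): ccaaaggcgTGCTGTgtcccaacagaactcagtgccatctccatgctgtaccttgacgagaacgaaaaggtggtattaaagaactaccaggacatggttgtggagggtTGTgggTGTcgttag
BMP4 (chr1:183416259-183416381, minus strand): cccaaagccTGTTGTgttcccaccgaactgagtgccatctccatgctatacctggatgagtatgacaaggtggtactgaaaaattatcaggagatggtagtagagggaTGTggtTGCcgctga
BMP6 (chr7:5208746-5208868, plus strand): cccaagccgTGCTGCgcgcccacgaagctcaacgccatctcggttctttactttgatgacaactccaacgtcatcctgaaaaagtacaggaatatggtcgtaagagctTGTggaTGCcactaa
In all 5 genes, 4 of the 40 codons encode cysteine, at the same positions, with 1 codon between the last pair and 1 codon after them. INHBA and INHBB were identical at 97 of the 123 bases (78.9%), and BMP2 and BMP4 at 95 (77.2%). The other pairs were identical at 58.5 to 65.9% of the bases.

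Several gene models bear on what was counted. INHBA was listed with the same identifier on chromosome 18 (chr18:52889684-52909260, 6 exons of 2139 bases, of which 1275 are coding) and on chromosome 12 (chr12:53115379-53117128, 1750 bases, none of them coding). According to the annotation, bases 1823 to 3573 of the reference transcript, 48.9% of it, align to the locus on chromosome 12 with 99.3% identity. With blastn, that locus had 0 matches to the 1275 coding bases on chromosome 18 and 3 matches, covering 324 bases, to the non-coding exon bases. It begins with a run of CA repeats, shown here because such repeats occur at many places in a genome, chr12:53115379-53115408 on the plus strand:
INHBA on chromosome 12: cacacacacacacacacacacacacacaca
The chromosome 18 locus is the one that encodes the βA subunit and is called INHBA below. FST (chr16:32806341-32811382) had a model of 1037 bases of which 1032 were coding, so nearly all reads from its untranslated ends were left out of its value. Its first coding segment, with the start codon in capitals and only 5 bases after the annotated start of the gene, lies at chr16:32806346-32806430 on the plus strand:
FST first coding segment: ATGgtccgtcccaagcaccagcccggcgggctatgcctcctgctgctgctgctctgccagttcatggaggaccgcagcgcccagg
The FST model also skips 2 genome bases between coding segments 2 and 3, in capitals in the surrounding stretch at chr16:32808400-32808441.
FST between coding segments 2 and 3: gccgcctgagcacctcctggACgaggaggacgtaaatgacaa
FSTL3 (chr2:77656655-77662608, minus strand) shared 973 of its 1815 exon bases, 53.6%, with exons of PRSS57 on the opposite strand. PRSS57, which was looked up after these values were seen, had at most 0.0709 FPKM in any wound, and whether the authors counted by strand is not given in the sources used here.

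Between 28314785 and 40168372 reads per wound were assigned to genes, and a single read was worth 0.0112 to 0.0194 FPKM for a 2 kb gene. FSTL1 was the most abundant of the genes, with a mean of 440.7 FPKM over the 11 wounds and a range of 342.4 to 581.7 FPKM, above every value of any other member. FSTL3 (mean 14.4 FPKM), INHBA (13.8 FPKM) and INHBB (10.7 FPKM) followed, with ranges that overlapped. The chromosome 12 locus (4.89 FPKM) and FST (4.80 FPKM) came next and overlapped, as FST did BMP6, and all values of the former lay below all values of INHBB. BMP6 (2.61 FPKM) and BMP4 (2.02 FPKM) overlapped in range, as did GREM1 (1.21 FPKM) with both. Every wound had more BMP4 than any wound had BMP2 (0.784 FPKM), and BMP2 overlapped NOG (0.336 FPKM), the least abundant.

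**Figure D1:**
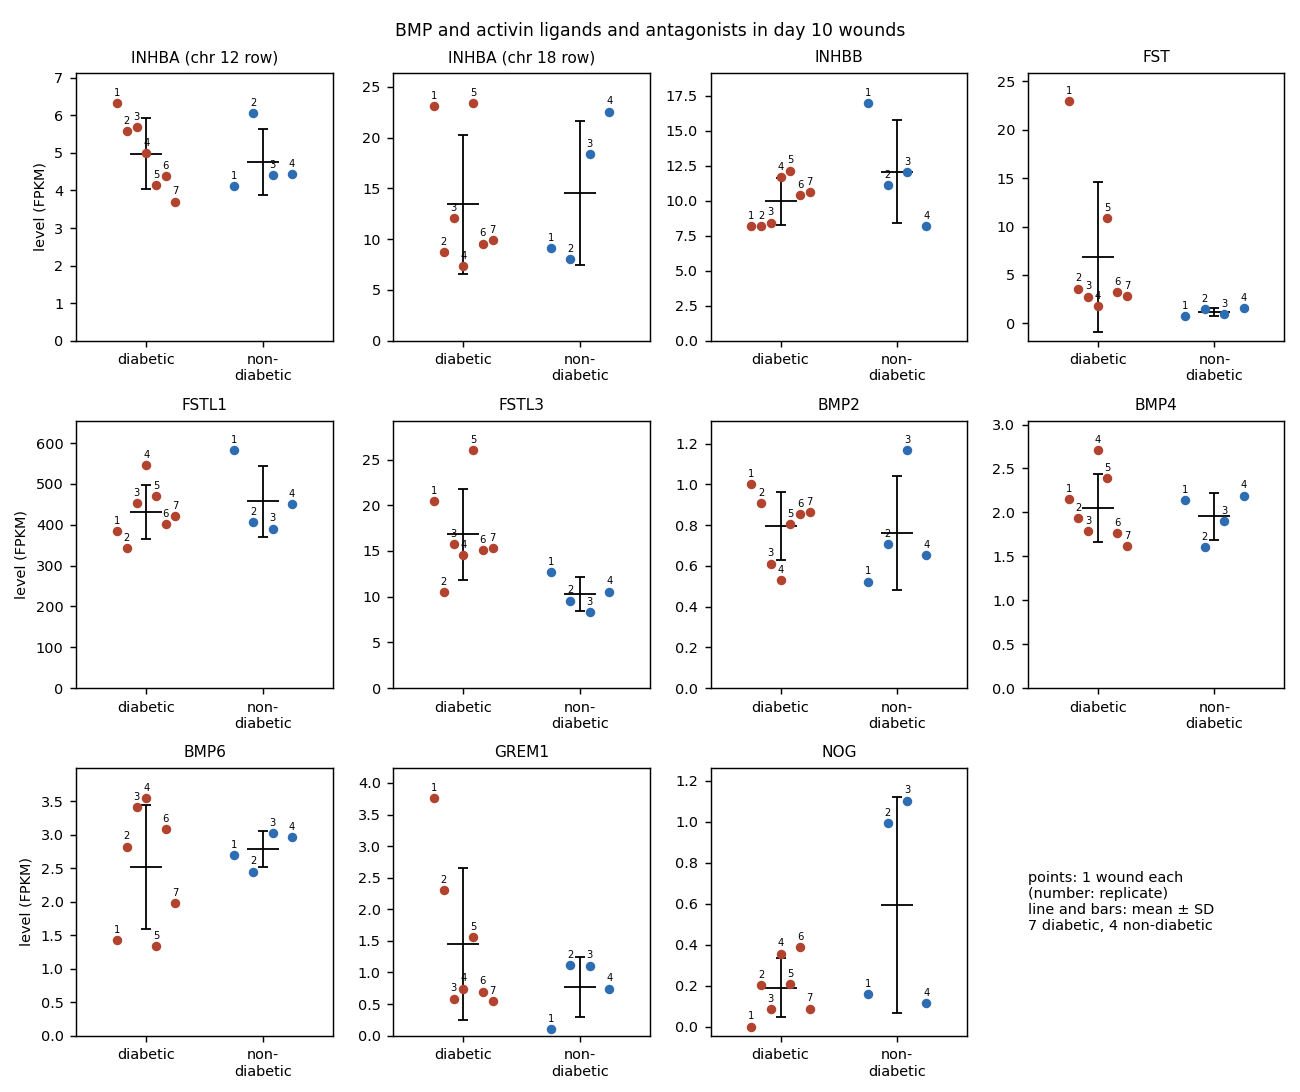
Level of each gene (FPKM, linear axes that differ between panels) in 7 diabetic and 4 non-diabetic wounds, with 1 numbered point per wound and the group mean ± SD. FST in diabetic wounds ran from 1.76 to 22.9 FPKM, above the 0.741 to 1.58 FPKM of non-diabetic wounds, whereas the groups overlapped in all other panels.

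FST was measured at 22.9, 3.58, 2.77, 1.76, 10.9, 3.27 and 2.84 FPKM in diabetic wounds 1 to 7. In non-diabetic wounds 1 to 4 it was 0.741, 1.46, 0.998 and 1.58 FPKM. Diabetic wounds 1 and 5 stood far above the rest, and diabetic wound 4, the lowest, was still above non-diabetic wound 4. The counts behind these values were 58 to 850 reads in diabetic and 22 to 64 reads in non-diabetic wounds. The ratio of the group means was 5.75 and fell to 3.505 without diabetic wound 1, while the group medians were 3.27 and 1.23 FPKM. On the log2(FPKM + 0.5) scale used for all tests, on which changes of low values are understated, the difference was 1.65 (SE 0.56, 95% confidence interval 0.42 to 2.87). Its limma p of 0.0127 became 0.137 after Benjamini-Hochberg adjustment over all genes, and a two-sided exact permutation test, which went through 330 splits of the wounds, gave p = 0.0212. FST was therefore not called, and its adjusted p (limma) ran from 0.0671 to 0.646 over the 25 alternatives, with differences of 1.28 to 1.98, all positive.

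FSTL3 was at 20.4, 10.5, 15.8, 14.6, 26.0, 15.1 and 15.4 FPKM in diabetic wounds 1 to 7. It was at 12.7, 9.56, 8.34 and 10.6 FPKM in non-diabetic wounds 1 to 4. Diabetic wounds 5 and 1 were again the highest, and diabetic wound 2 was the single diabetic wound within the non-diabetic range. The log2 difference was 0.65 (SE 0.21, 95% confidence interval 0.20 to 1.099, limma adjusted p = 0.112, exact permutation p = 0.0273). FSTL3 was called higher with a weight per library (0.73, limma adjusted p = 0.0265), a setting that called 2.91% of all genes higher and 2.98% lower, and without diabetic wound 2 (0.75, limma adjusted p = 0.0440), and in none of the other alternatives, whose adjusted p reached 0.476.

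FSTL1 ranged from 342.4 to 545.6 FPKM in diabetic wounds, with a median of 421.0 FPKM, and stood at 581.7, 406.9, 390.4 and 450.0 FPKM in non-diabetic wounds 1 to 4. The highest value was in non-diabetic wound 1 and the lowest in diabetic wound 2, and the groups overlapped. With 40839 to 68969 reads per wound, FSTL1 was the most precisely counted of the genes, and its log2 difference was -0.08 (SE 0.14, 95% confidence interval -0.39 to 0.23, limma adjusted p = 0.821). The direction turned to 0.0087 with library weights and to 0.04 without non-diabetic wound 1. FSTL1 and FST, both named for follistatin, thus had different orders of the wounds.

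INHBA, the βA subunit, was at 23.1, 8.69, 12.1, 7.32, 23.4, 9.57 and 9.94 FPKM in diabetic wounds 1 to 7. In non-diabetic wounds 1 to 4 it was at 9.08, 8.03, 18.4 and 22.6 FPKM. In each group a pair of wounds was high, diabetic wounds 1 and 5 and non-diabetic wounds 3 and 4, and the ranges were nearly the same. The means were 13.4 ± 6.85 FPKM (SD, n = 7) and 14.5 ± 7.11 FPKM (SD, n = 4). The log2 difference was -0.11 (SE 0.38, limma adjusted p = 0.912, exact permutation p = 0.861), and its 95% confidence interval of -0.94 to 0.71 left room for a change of either sign. The direction turned on leaving out diabetic wound 4, non-diabetic wound 3 or non-diabetic wound 4.

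The locus on chromosome 12 did not follow the coding locus. It ranged from 3.70 to 6.33 FPKM in diabetic wounds (median 4.99 FPKM) and was at 4.11, 6.05, 4.40 and 4.44 FPKM in non-diabetic wounds 1 to 4. Its highest values were in diabetic wound 1 and non-diabetic wound 2, whereas diabetic wound 5, the highest for INHBA, had 4.15 FPKM. Within a wound its level was 0.177 to 0.754 times that of INHBA. The log2 difference was 0.05 (SE 0.15, limma adjusted p = 0.891).

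INHBB, the βB subunit, was at 8.18, 8.20, 8.42, 11.7, 12.1, 10.4 and 10.6 FPKM in diabetic wounds 1 to 7, and at 16.97, 11.08, 12.05 and 8.19 FPKM in non-diabetic wounds 1 to 4. Non-diabetic wound 1 was the highest and the remaining wounds overlapped. The means were 9.95 ± 1.68 FPKM (SD, n = 7) and 12.1 ± 3.65 FPKM (SD, n = 4), with a log2 difference of -0.24 (SE 0.18, 95% confidence interval -0.63 to 0.16, limma adjusted p = 0.533, exact permutation p = 0.215). Diabetic wound 5 was the highest diabetic wound for both subunits, whereas diabetic wound 1 and non-diabetic wound 4, high in INHBA, had the lowest INHBB of their groups. INHBA was 0.535 to 2.82 times INHBB within a wound. Of the other subunit genes, INHBE is described below with the remaining pathway.

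The level of the antagonist was then set beside that of its ligand in the same wound. FST was 0.230 to 0.994 times INHBA in diabetic wounds, with a median of 0.341, and 0.0816, 0.181, 0.0542 and 0.0702 times INHBA in non-diabetic wounds 1 to 4, with a median of 0.0759. The groups did not overlap in this ratio, which follows in part from their separation in FST itself and was not tested. Diabetic wounds 1 and 5 were the highest of their group in both genes. Non-diabetic wounds 3 and 4 had INHBA levels close to theirs, 18.4 and 22.6 FPKM, with 0.998 and 1.58 FPKM of FST. For FSTL3 the ratio to INHBA was 0.885 to 1.99 in diabetic wounds and 0.454 to 1.40 in non-diabetic wounds, and overlapped.

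**Figure D2:**
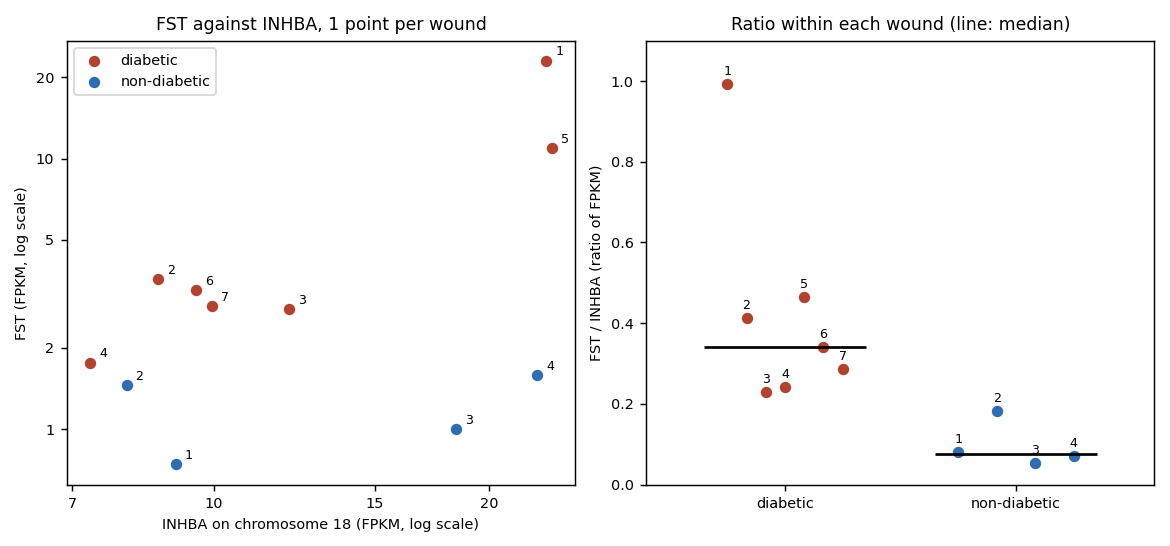
FST against INHBA in FPKM on log axes (left) and their ratio on a linear axis (right), with 1 numbered point per wound and the group median as a line. All 7 diabetic wounds had an FST to INHBA ratio of at least 0.230, and the 4 non-diabetic wounds had 0.181 or less.

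The BMP ligands were all low and overlapped between the groups. BMP2, an inducer of bone and of hair follicle and epidermal differentiation programmes, ranged from 0.529 to 1.00 FPKM in diabetic wounds (median 0.854 FPKM) and was at 0.523, 0.706, 1.17 and 0.652 FPKM in non-diabetic wounds 1 to 4. Its log2 difference was 0.05 (SE 0.15, limma adjusted p = 0.898). BMP4, its close relative by sequence, ranged from 1.62 to 2.71 FPKM in diabetic wounds (median 1.93 FPKM) and was at 2.14, 1.601, 1.90 and 2.19 FPKM in non-diabetic wounds, with a log2 difference of 0.05 (SE 0.13, limma adjusted p = 0.893). Neither gene had a wound that stood apart. BMP6, known for control of hepcidin in the liver and expressed in epidermis, was at 1.43, 2.82, 3.41, 3.55, 1.34, 3.08 and 1.98 FPKM in diabetic wounds 1 to 7 and at 2.70, 2.45, 3.03 and 2.97 FPKM in non-diabetic wounds 1 to 4. The lowest BMP6 values were those of diabetic wounds 5 and 1, the wounds highest in FST, INHBA and FSTL3. The log2 difference of BMP6 was -0.18 (SE 0.23, 95% confidence interval -0.69 to 0.32, limma adjusted p = 0.728).

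Of the BMP antagonists, GREM1 was at 3.76, 2.30, 0.588, 0.745, 1.56, 0.696 and 0.542 FPKM in diabetic wounds 1 to 7. It was at 0.107, 1.118, 1.110 and 0.744 FPKM in non-diabetic wounds 1 to 4. Diabetic wounds 1, 2 and 5 lay above the non-diabetic range and the other 4 within it, and non-diabetic wound 1, with 12 reads, was the lowest. The log2 difference of 0.52 (SE 0.42, 95% confidence interval -0.40 to 1.45, limma adjusted p = 0.564, exact permutation p = 0.291) fell to 0.30 without diabetic wound 1 and to 0.20 without non-diabetic wound 1. NOG was under the filter for testing, at 0 to 10 reads in diabetic and 4 to 34 reads in non-diabetic wounds. It was at 0, 0.202, 0.0862, 0.356, 0.207, 0.387 and 0.0876 FPKM in diabetic wounds 1 to 7, and the 0 reads of diabetic wound 1 allow up to 0.0948 FPKM by counting error alone. Non-diabetic wounds 2 and 3 had 0.994 and 1.103 FPKM of NOG, and wounds 1 and 4 had 0.158 and 0.116 FPKM, within the diabetic range (exact permutation p = 0.118).

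Counted together, 10 of the 11 loci passed the filter of at least 0.5 FPKM in at least 4 wounds. Among these, limma called 0 higher and 0 lower (adjusted p under 0.05 with a log2 difference of over 0.5 in size), against 1.35% and 1.66% of the 13956 genes tested. At an unadjusted p under 0.05, FST and FSTL3 were higher and none was lower, against 9.01% and 9.39% of all genes tested. Limma voom on the recovered reads likewise called 0 of them, against 2.92% of all genes. FST was the 1 locus of the 10 in which every diabetic wound lay above every non-diabetic wound, which held for 2.69% of all genes tested, and in 0 loci did every diabetic wound lie below, against 2.96%. The median log2 difference of the 10 loci was 0.05, beside 0.01 over all genes tested.

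The other genes of the pathway were taken from a list of 85 genes matched by symbol, of which 59 were tested and 26 were under the filter, with at most 0.642 FPKM in any wound. INHBE and HEY2 were called higher in diabetic wounds by limma and no gene of the list was called lower, against 1.35% and 1.66% of all genes tested. At an unadjusted p under 0.05, 6 were higher and 10 lower, against 9.01% and 9.39% of all genes, shares that also apply to the counts by role given next. The median log2 difference of the 59 genes was -0.05. Every diabetic wound lay above every non-diabetic wound in 1 of the 59 and below in 3, against 2.69% and 2.96% of all genes tested.

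**Figure D3:**
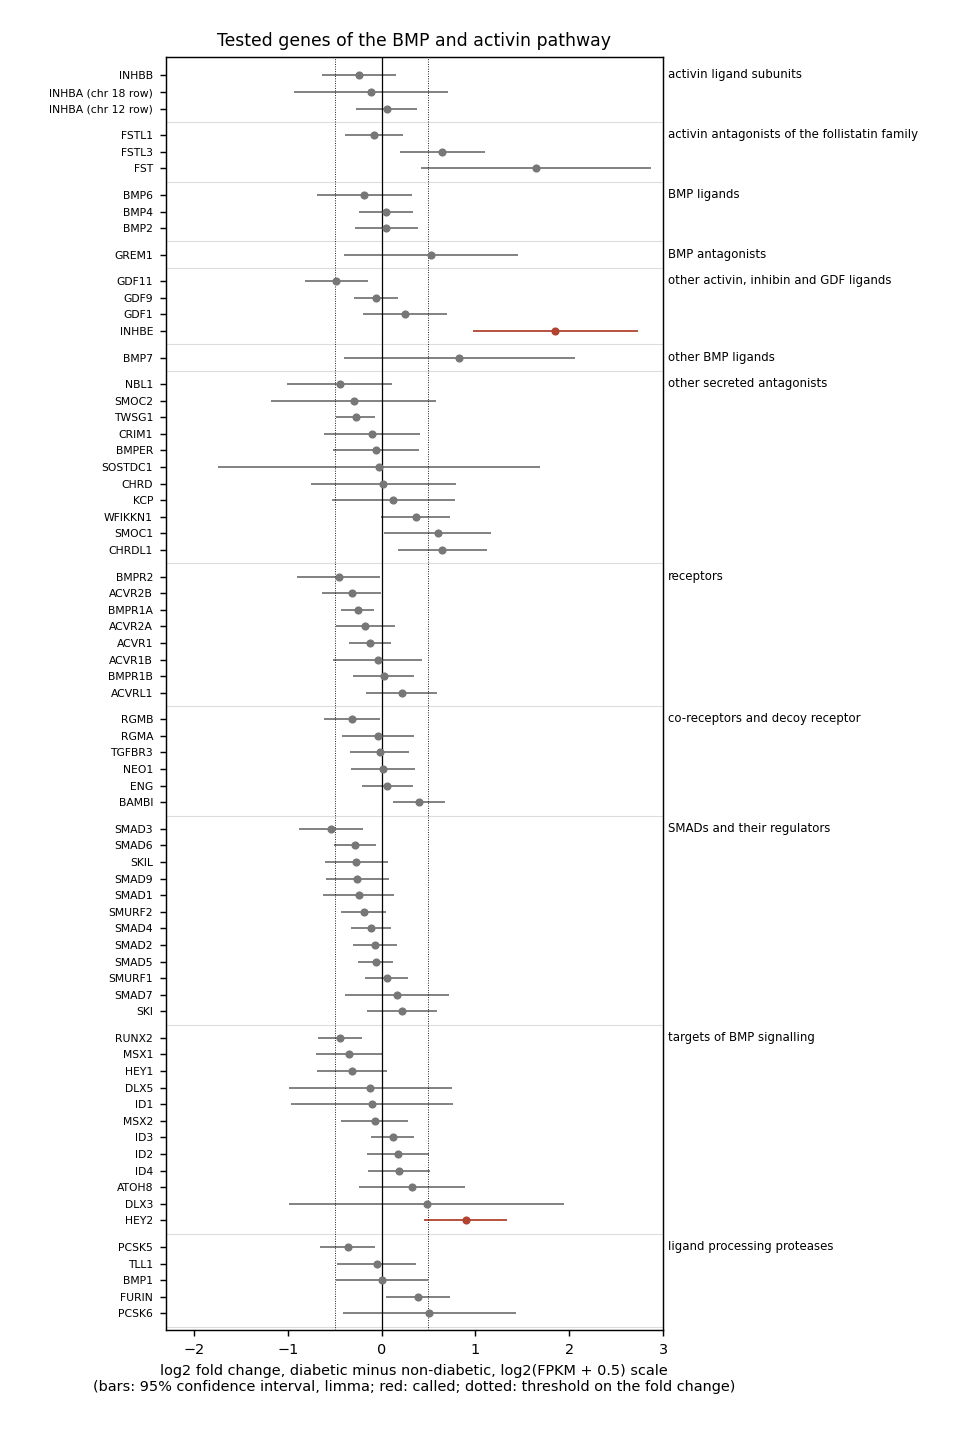
Log2 difference between diabetic and non-diabetic wounds, on the log2(FPKM + 0.5) scale, for the 10 tested loci of the 10 genes and the 59 other tested genes of the pathway, grouped by role, with 95% confidence intervals from limma. INHBE and HEY2, in red, are the genes called, at 1.85 and 0.90, FST has a difference of 1.65, and most of the remaining intervals include 0.

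Among the other activin, inhibin and GDF ligands, 4 of 9 genes were tested. INHBE (chr5:22732774-22734716), which encodes the activin βE subunit and is known mainly from liver, was at 2.44, 0.445, 1.55, 1.01, 3.69, 3.69 and 3.13 FPKM in diabetic wounds 1 to 7. It was at 0.0409, 0.202, 0.521 and 0.0601 FPKM in non-diabetic wounds 1 to 4. In 6 of 7 diabetic wounds it exceeded every non-diabetic wound, and diabetic wound 2 was the exception. The log2 difference was 1.85 (SE 0.40, 95% confidence interval 0.97 to 2.73, limma adjusted p = 0.0294, exact permutation p = 0.00909), from 34 to 206 reads against 2 to 31 reads. On recovered reads, voom gave 3.60 with an adjusted p of 0.121. INHBE also lost its call on leaving out any single non-diabetic wound or diabetic wound 3, 5 or 7 (limma adjusted p = 0.0504 to 0.0908). GDF9, the most abundant gene of this list and best known from oocytes, was at 5.54 ± 0.553 FPKM (SD, n = 7) and 5.82 ± 0.832 FPKM (SD, n = 4).

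Of 12 other BMP ligand genes, BMP7 was the 1 tested, at 2.33 ± 1.24 FPKM (SD, n = 7) and 1.03 ± 0.748 FPKM (SD, n = 4), with a log2 difference of 0.83 (SE 0.56, limma adjusted p = 0.479). BMP7 had 0 reads in diabetic wound 4, which allows up to 0.0175 FPKM, and 0.0906 FPKM in non-diabetic wound 1. These are the wounds lowest in the summed keratinocyte markers, as given below. Among 11 tested secreted antagonists, 0 were called by limma, and 2 were higher and 1 lower at an unadjusted p under 0.05. NBL1, a DAN family antagonist and the most abundant, was at 51.9 ± 16.4 FPKM (SD, n = 7) and 69.5 ± 18.5 FPKM (SD, n = 4). CHRDL1, a chordin-like BMP binding protein, had the largest log2 difference of the antagonists at 0.65 (SE 0.22, limma adjusted p = 0.131), with overlapping groups, and was called higher with library weights and without diabetic wound 2.

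Of 8 tested receptors, 0 were called, with 0 higher and 3 lower at an unadjusted p under 0.05 (limma), against 9.01% and 9.39% of all genes, and their median log2 difference was -0.15. ACVRL1, the type I receptor of endothelium, was the most abundant at 14.2 ± 3.08 FPKM (SD, n = 7) and 12.04 ± 1.91 FPKM (SD, n = 4). BMPR2, the type II BMP receptor, had the largest log2 difference at -0.46 (SE 0.20, limma adjusted p = 0.257), and was called lower with library weights. BMPR1A, a type I BMP receptor named after its values were seen, was lower in all 7 diabetic wounds than in any non-diabetic one, at 5.93 ± 0.508 against 7.15 ± 0.211 FPKM (log2 difference -0.25, limma adjusted p = 0.118). Of 6 co-receptors and decoys, endoglin (ENG) was the most abundant, at 41.6 ± 6.17 and 39.6 ± 3.94 FPKM. BAMBI, a decoy without a kinase domain, had every diabetic wound above every non-diabetic wound, at 3.81 ± 0.702 and 2.73 ± 0.145 FPKM (log2 difference 0.40, SE 0.13, limma adjusted p = 0.118).

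Among 12 SMADs and their regulators, 0 were called by limma and 2 were lower at an unadjusted p under 0.05. SMAD3, which carries activin and TGF-β signals, was at 6.81 to 12.1 FPKM in diabetic wounds (median 10.97 FPKM) and at 17.3, 13.6, 13.8 and 13.1 FPKM in non-diabetic wounds 1 to 4. The diabetic wounds were thus all below the non-diabetic ones, with a log2 difference of -0.54 (SE 0.16, limma adjusted p = 0.0865, exact permutation p = 0.0121). SMAD3 was called lower with the libraries scaled to their summed FPKM. The co-repressor SKI was the most abundant of this list, at 18.6 ± 3.51 and 15.9 ± 3.29 FPKM.

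Of 12 tested targets of BMP signalling, HEY2 was called. HEY2 (chr1:37219887-37231321), a transcriptional repressor also known as a Notch target, was at 1.18, 2.44, 2.38, 3.64, 2.46, 2.35 and 2.24 FPKM in diabetic wounds 1 to 7 and at 0.714, 0.959, 1.22 and 1.18 FPKM in non-diabetic wounds 1 to 4. In 6 of 7 diabetic wounds it exceeded every non-diabetic wound, diabetic wound 1 being the exception. The log2 difference was 0.90 (SE 0.20, 95% confidence interval 0.46 to 1.34, limma adjusted p = 0.0335, exact permutation p = 0.00606). The call was lost without the filter, with voom, and on leaving out any single non-diabetic wound or diabetic wound 3, 5, 6 or 7 (limma adjusted p = 0.0550 to 0.107). ID3, an inhibitor of differentiation and the most abundant target, was at 64.2 ± 6.72 and 59.3 ± 7.53 FPKM (log2 difference 0.12, SE 0.11, limma adjusted p = 0.613). RUNX2, a transcription factor of bone named after its values were seen, was lower in every diabetic wound, at 9.83 ± 1.15 and 13.5 ± 1.39 FPKM, with a limma adjusted p of 0.0472 but a log2 difference of -0.44, below the threshold on its size, which it passed with library weights. Of 5 tested ligand processing proteases, 0 were called by limma, with 1 higher and 1 lower at an unadjusted p under 0.05. BMP1, which cleaves procollagen and chordin, was the most abundant at 88.2 ± 24.2 and 86.1 ± 17.1 FPKM, and PCSK6 had the largest log2 difference at 0.51 (SE 0.42, limma adjusted p = 0.572).

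**Figure D4:**
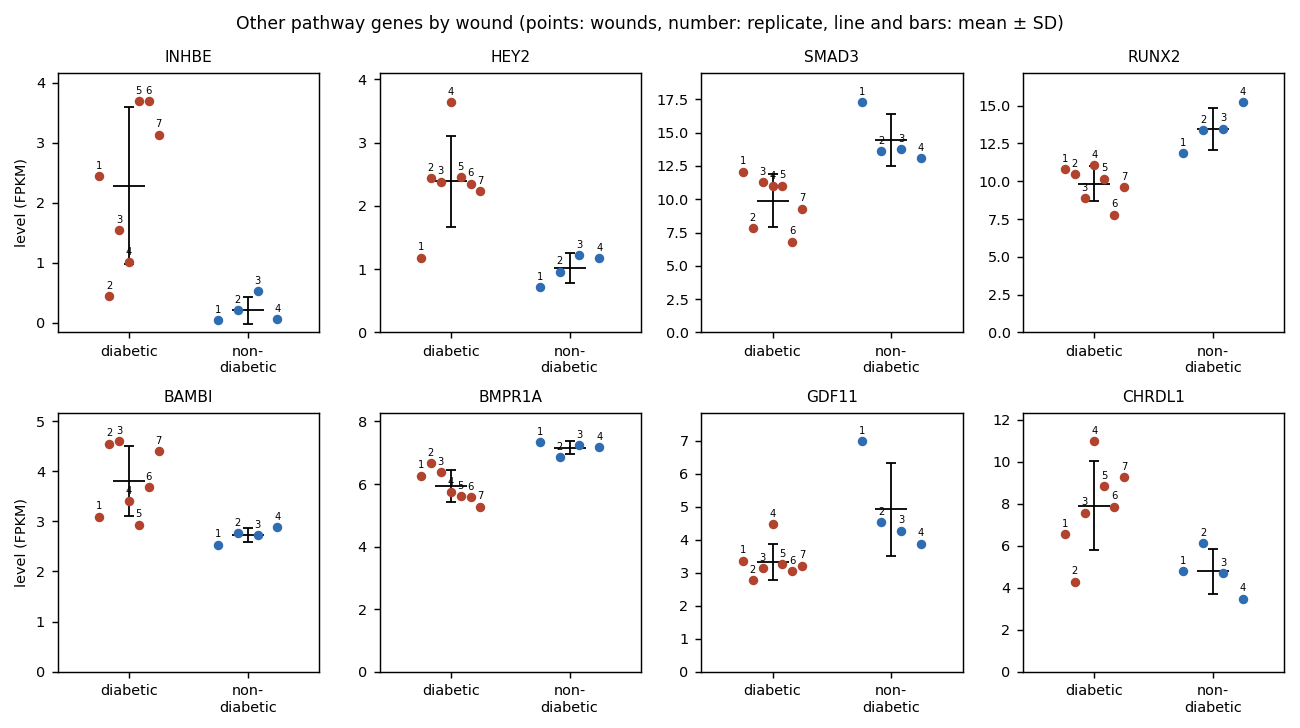
Level (FPKM, linear axes that differ between panels) of 8 other pathway genes in the 7 diabetic and 4 non-diabetic wounds, with 1 numbered point per wound and the group mean ± SD. SMAD3, RUNX2 and BMPR1A were lower and BAMBI higher in every diabetic wound than in every non-diabetic wound. Over all genes tested, such a separation held for 2.96% below and 2.69% above. GDF11, shown after its values were seen, overlapped at 3.33 ± 0.535 and 4.92 ± 1.40 FPKM.

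The summed levels of cell type markers differed between wounds, and since the RNA came from whole tissue, fewer cells of a type and less RNA per cell cannot be told apart. Of 12 keratinocyte markers, led by KRT5, 1 was called higher, KRT15 (limma adjusted p = 0.0388), against 1.35% of all genes. Their summed level was 1532 to 6598 FPKM in 9 wounds. It was 59.6 FPKM in diabetic wound 4 and 301.7 FPKM in non-diabetic wound 1. These 2 wounds had the lowest FST of their groups, the lowest BMP2 of their groups and the lowest BMP7. Without both, the log2 difference was 1.71 for FST and 0.78 for FSTL3, neither called (limma adjusted p = 0.209 and 0.144), while INHBE and HEY2 lost their calls at 1.86 and 0.70 (limma adjusted p = 0.0782 and 0.107). The same wounds had summed levels of 8 neutrophil markers, led by S100A12, of 42.7 and 300.9 FPKM, against 3805 to 12591 FPKM elsewhere. Of the 6 tested, 0 were called by limma, against 3.00% of all genes, and 0 had an unadjusted p under 0.05, against 18.4%. Nearly all of the neutrophil sum was S100A8, S100A9 and S100A12, and the other markers of the list were divided. CXCR2 followed it, at 0.215 FPKM in diabetic wound 4 and 0.0434 FPKM in non-diabetic wound 1, against 1.08 to 2.75 FPKM elsewhere. PADI4 was likewise lowest in these 2 wounds. MPO, lowest in diabetic wound 4 at 0.0259 FPKM, was at 0.244 FPKM in non-diabetic wound 1, within the range of the others. CSF3R, the receptor of granulocyte colony-stimulating factor, was at 3.70 and 2.75 FPKM in these wounds and at 3.45 to 11.06 FPKM elsewhere, and ELANE, neutrophil elastase, was highest in diabetic wound 4 at 1.24 FPKM.

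The 10 macrophage markers, led by C1QB, summed to 753.9 to 1716 FPKM in diabetic wounds and 490.4 to 913.5 FPKM in non-diabetic wounds, and 2 of the 10 were called higher, against 1.35% of all genes. At an unadjusted p under 0.05, 6 of the 10 were higher, against 9.01% of all genes, and their median log2 difference was 0.62. The 12 fibroblast and myofibroblast markers, led by COL3A1, summed to 20064 to 53961 FPKM in diabetic wounds, lowest in diabetic wounds 2 and 1. In non-diabetic wounds they summed to 36118 to 67154 FPKM. Limma called 0 of the 12, against 3.00% of all genes. At an unadjusted p under 0.05, 1 was lower, POSTN (log2 difference -1.18, limma adjusted p = 0.0698), against 9.39% of all genes. FSTL1 was also lowest in diabetic wounds 2 and 1 among the diabetic wounds and highest in non-diabetic wound 1, the wound with the highest fibroblast sum. Other wounds differed in order. Non-diabetic wound 4, with the lowest non-diabetic sum, had more FSTL1 (450.0 FPKM) than non-diabetic wounds 2 and 3. Diabetic wound 7, with the highest diabetic sum, had the median diabetic FSTL1 (421.0 FPKM). The 8 adipocyte markers, led by FABP4, summed to 282.8 to 895.6 and 302.1 to 511.8 FPKM, with 1 called lower, against 1.66% of all genes. Their median log2 difference was -0.76, and FABP4 was the 1 marker of the 8 with a difference above 0 (0.92, limma adjusted p = 0.0607). The 10 endothelial markers, led by PECAM1, summed to 259.1 to 327.9 and 247.6 to 314.6 FPKM. Limma called 0 of them, against 3.00% of all genes, and 1 was higher at an unadjusted p under 0.05, against 9.01%. The 9 skeletal muscle markers, led by ACTA1, summed to 1968 FPKM in diabetic wound 3 and to at most 3.73 FPKM in any other wound. No marker was at 0 in every wound, and the part of these cell types in the levels of FST, FSTL1, FSTL3, INHBE and HEY2 was not tested.

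**Figure D5:**
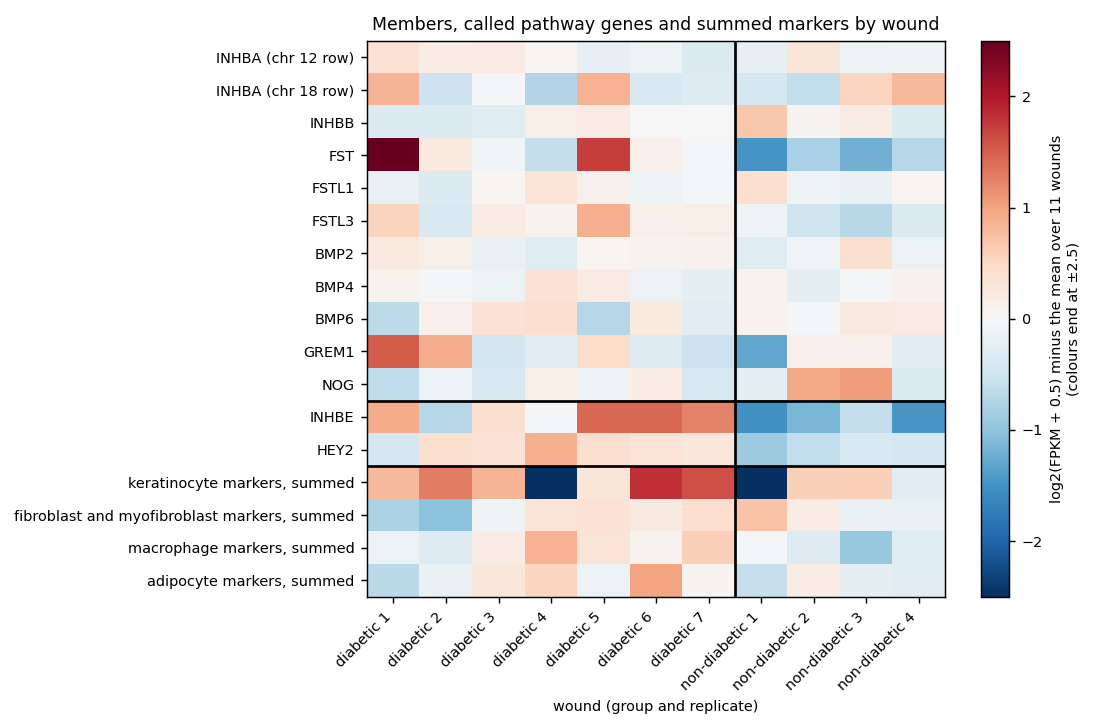
Deviation of log2(FPKM + 0.5) from the mean over the 11 wounds for each locus, the called pathway genes and 4 summed marker lists, with wounds in columns and colours ending at ±2.5. FST is above its mean in diabetic wounds 1, 2, 5 and 6 and below it in all 4 non-diabetic wounds. The keratinocyte sum is lowest in diabetic wound 4 and non-diabetic wound 1.

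The genes whose pattern was most like that of FST over the 11 wounds were NOC2L (Pearson r = 0.986), HNRNPF (r = 0.960) and GRWD1 (r = 0.959), given as a description over points that share their libraries. All 3 were highest in diabetic wounds 1 and 5. NOC2L was at 19.4 and 17.6 FPKM in them and at most 14.2 FPKM elsewhere, HNRNPF at 60.1 and 53.0 FPKM and at most 48.5 FPKM elsewhere, and GRWD1 at 13.4 and 10.8 FPKM and at most 7.97 FPKM elsewhere. None of the 3 was called, with limma adjusted p of 0.263, 0.268 and 0.321.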

How the data were processed

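Total RNA from each wound was made into a directional poly(A) library. Per the labels and the submitters' processing notes, the authors used fastp, HISAT2 2.2.1, StringTie 2.2.3 and featureCounts 2.0.6 with Sscrofa11.1, and tested counts with DESeq2. The deposited values are FPKM, whose formula and annotation release are not given in the sources used here. Of 30376 genes, 30352 had an identifier in NCBI annotation release 106, with the same start for 99.94%. Multiplied by gene length and divided by 1 step per library, 100% of the values were whole reads within 0.05 reads. The library size that these steps imply was 0.854 (non-diabetic wound 1) to 1.18 (diabetic wound 2) times the reads assigned to genes.

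The main test was limma (lmFit, eBayes with trend) on log2(FPKM + 0.5) for 13956 genes with at least 0.5 FPKM in at least 4 libraries, Benjamini-Hochberg adjusted over them, and calls needed both an adjusted p under 0.05 and a log2 difference of over 0.5 in size. FPKM is not a count, so no count model was the main test. Each gene's difference in mean log2 value also had a two-sided exact permutation test over 330 splits, counting splits with an absolute difference at least as large, with a smallest p of 0.00303. The p-values measure spread between wounds of 1 animal per group.

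The genes and lists were chosen with earlier results of these data known. Named genes are every member, each called pathway gene, the most abundant and most changed gene per list, the 3 genes most like a member that was called or had separate groups, and the leading gene of each marker list. BMPR1A, CSF3R, CXCR2, ELANE, GDF11, KRT15, MPO, PADI4, POSTN, PRSS57, RUNX2, S100A8, S100A9 and WFIKKN1 were named after their values were seen. HJV, KRT14, KRT16, KRT17 and MB had no match by symbol. Alternatives changed the pseudocount, filter, scaling, spread estimate, library weights, replicate block, the letter of the library name, the tool and the wounds included. The test was tried on simulated data. Software was BLAST+ 2.17.0, limma 3.58.1 in R 4.3.3, and Python 3.11.15 with matplotlib 3.10.9, SciPy 1.17.1, pandas 2.3.3 and numpy 2.4.6.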

Additional observations from a re-analysis of the deposited data

Results flagged for a closer look

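Dixon's gap test was applied to each locus in each group, 26 groups in all including INHBE and HEY2, and passed its 95% critical value in 2 of them, where chance gives about 1 in 20. FST in diabetic wound 1, at 22.9 FPKM, was far above the next diabetic wound at 10.9 FPKM (gap over range 0.569). The chromosome 12 locus of INHBA in non-diabetic wound 2, at 6.05 FPKM, was above the next wound at 4.44 FPKM.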

How the results depend on the processing

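Over 25 alternatives, FST, INHBB, FSTL3, BMP6 and GREM1 kept their direction, as did INHBE and HEY2. The number of members called higher was 0, and 1 with library weights and 0 to 1 on leaving out 1 wound, in both cases FSTL3 (without diabetic wound 2), and 0 were called lower throughout. Pathway genes called higher numbered 2, and 1 without the filter, 4 with library weights (CHRDL1 and WFIKKN1 in addition), 0 with voom, 0 without the 2 wounds low in keratinocyte markers and 0 to 3 on leaving out 1 wound (CHRDL1 in addition without diabetic wound 2). Pathway genes called lower numbered 0, and 1 with libraries scaled to their summed FPKM (SMAD3) and 2 with library weights (BMPR2 and RUNX2). All genes called numbered 419, and 822 with library weights, 212 without those 2 wounds and 209 to 482 on leaving out 1 wound, with 279 without diabetic wound 3 and 209, 273, 220 and 255 without non-diabetic wounds 1 to 4. Scaling to the summed FPKM shifted the median of all genes from 0.01 to -0.05 and the share of calls that were higher from 44.9 to 34.2% (152 higher, 293 lower).

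The replicate numbers name wounds of different animals and the same-numbered wounds did not deviate together (r = -0.27, 0.22, 0.07 and -0.48). With the replicate block, over wounds 1 to 4 of each group, 16 genes, 0 members and 0 pathway genes were called higher or lower. No non-diabetic wound correlated best with its own number.

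Directions turned where differences were near 0, and the cause was not tested. The chromosome 12 locus of INHBA went from 0.05 to -0.011 with summed scaling, -0.024 with library weights and -0.0066 without the 2 wounds, and ran from -0.0030 to 0.17 on leaving out 1 wound (below 0 without diabetic wound 1 or non-diabetic wound 1). INHBA ran from -0.34 to 0.14 on leaving out 1 wound, above 0 without diabetic wound 4, non-diabetic wound 3 or non-diabetic wound 4. FSTL1 went to 0.0087 with library weights and ran from -0.15 to 0.041, above 0 without non-diabetic wound 1. BMP2 went to -0.011 with library weights and ran from -0.040 to 0.19, below 0 without the same wound, and was not tested at the 1 FPKM filter. BMP4 went to -0.013 with summed scaling and ran from -0.026 to 0.093, below 0 without diabetic wound 4 or non-diabetic wound 2. The values of NOG rested on 0 to 34 reads per wound, and the non-diabetic values of INHBE on 2 to 31 reads.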
